A study of Schizosaccharomyces pombe with 6 samples.

Results

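Where 2 neighbouring genes on opposite strands run toward each other, their transcripts can share bases at the 3′ ends, and 1069 of 11033 small RNA peaks of fission yeast (Schizosaccharomyces pombe) lay on such genes. A peak was taken if at least 1 bp of it lay on each of 2 protein-coding genes, untranslated regions (UTRs) included, that are annotated on opposite strands with the 3′ end of each inside the other. The rule used the annotation and the peak positions, and no measured level entered it. Peaks were called on 1 list for all libraries, and the rule was chosen with earlier results of these data known. The 1069 peaks made up 9.689% of all peaks and 11.2% of the 9545 peaks on protein-coding genes. The other 8476 coding peaks served for comparison. They lay on chromosomes I (470), II (411) and III (188).

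Small RNA was profiled in 6 libraries. One library came from strain spb309, labelled dcr delta, grown at 30 °C (dcr1 encodes Dicer). Wild-type strain spb75 was sampled after 8 hours at 37 °C (1 library), after 7 days at 37 °C (1 library) and at 30 °C (2 libraries), and wild-type strain spb80 at 30 °C (1 library). Every culture grew in YES medium to an optical density of 0.5, and per the labels RNA of 18 to 28 nt was cut from a gel before sequencing. The labels name no wild type of strain spb309, do not give the bases removed from dcr1 and do not say whether libraries came from separate cultures. The p-values therefore measure at most the spread between samples, and the dcr delta and both heated arms have no replicate error of their own. In these bulk cultures a small RNA change in every cell and one in some of the cells cannot be told apart.

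Transcripts of convergent genes that run past each other's ends are complementary over the shared stretch and could pair into double-stranded RNA. Dicer cuts double-stranded RNA into small interfering RNA, which in fission yeast directs the Argonaute protein Ago1 and heterochromatin formation at the repeats beside the centromeres. Convergent genes are also sites where cohesin, the ring that holds sister chromatids together, is found, and several genes of the RNA interference pathway are themselves convergent. The deposited values carry no strand, so reads from one transcript, from its partner and from a duplex of both cannot be told apart.

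The sequences of some of these peaks, 30 bases each, show what the reads lie on. They are given 5′ to 3′ from the RefSeq genome ASM294v3, and the named pair has the plus-strand gene first. The first entry, at the centre of the peak with the lowest ratio without Dicer, is printed on both strands because the transcripts of both genes carry these complementary letters. The next are the centres of the peaks that were higher after 8 hours at 37 °C and of those with the highest ratios without Dicer. The last, from peaks of high level on ribosomal protein genes, hold the poly(A) signal AATAAA on the minus strand, the strand of the ribosomal protein gene, and its letters on the printed strand are in capitals.
cti1/SPCC1739.08C, chrIII:2042510-2042539, plus strand: ttcgattgagggcgtttgtcttatgttaac
cti1/SPCC1739.08C, chrIII:2042510-2042539, minus strand: gttaacataagacaaacgccctcaatcgaa
cti1/SPCC1739.08C, chrIII:2042580-2042609, plus strand: cagttactatttgttattcatgacatgata
iss1/cum1, chrI:754910-754939, plus strand: acaaggacaacggtttcaaaagttaaaagc
usp107/hut1, chrII:620660-620689, plus strand: gaattgttgtttagtattttgaggccggct
coq12/stp1, chrI:3883486-3883515, plus strand: gtttttgtaaaataggccagtcaaaacgta
pch1/SPBC32F12.07C, chrII:2795846-2795875, plus strand: cttccaatcgaccaaaaaaacggatctcat
spn6/dcr1, chrIII:1505620-1505649, plus strand: tccatcaacagagtattctgattacgaaac
odc1/rps502, chrI:3496421-3496450, plus strand: taatgaaatacaTTTATTaaatggactatc
ptf2/rps3, chrII:4238273-4238302, plus strand: tcttaaaccgaaTTTATTtttatcaggaat
abz2/rps3002, chrII:2348995-2349024, plus strand: tgagcaagttctTTTATTtaactcatttcg

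The annotation holds 750 pairs of convergent, overlapping coding genes, which is 1500 of 5113 coding genes. A peak was present in 456 of the pairs, with 1 peak in 220 pairs and several in 236, up to 11 in the pair rds1/SPAC343.20. Pairs with a peak had longer overlaps, with a median of 257 bp, against 67.5 bp in the 294 pairs without one. Over all pairs the overlap ran from 1 to 6260 bp with a median of 127.5 bp. The longest was that of rad3, the ATR checkpoint kinase, and swi1, a subunit of the fork protection complex, which held 6 peaks. A longer overlap offers more bases for a peak, so these counts are no measure of density.

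Density was therefore taken as the share of bases under a peak. Of the 362182 bp that lie in a convergent overlap, 14.9% were under a peak, 18.1% where the overlap holds no coding sequence and 13.4% where it reaches the coding sequence of a gene. The 3′ UTRs of single genes were the nearest to this, with 11.5%. Coding sequence of single genes had 5.13%, 5′ UTRs 3.43% and bases outside coding genes 6.14%. Each base of an overlap belongs to 2 transcripts and each base of a single 3′ UTR to 1, and peaks were called on 1 list for all libraries, so no test was made of these shares.

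**Figure D1:**
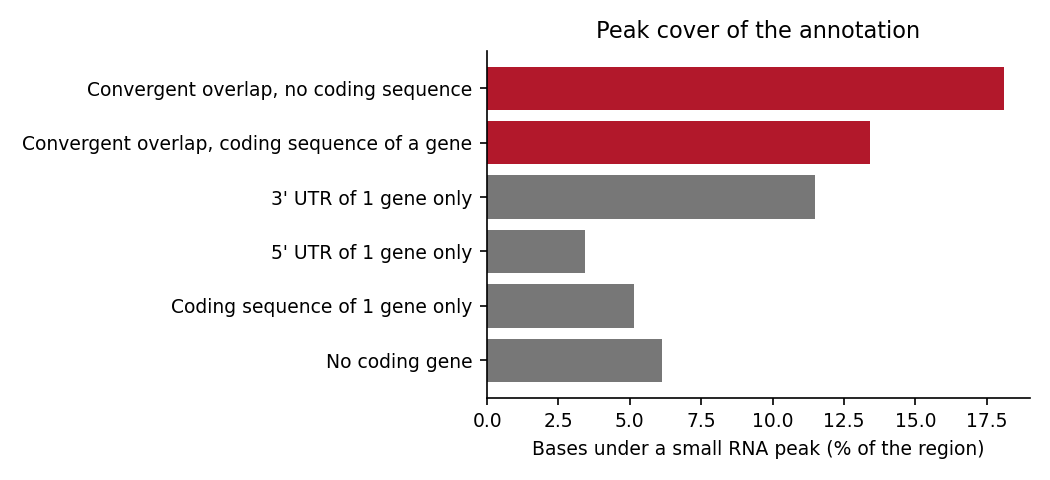
Share of bases under a small RNA peak (x axis, percent) in 6 kinds of annotated sequence (y axis). Convergent overlaps (red) had 18.1% without and 13.4% with coding sequence, against 11.5% in 3′ UTRs of 1 gene and 5.13% in coding sequence of 1 gene (grey).

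Within the transcripts, 391 peaks lay in the 3′ UTR of both genes, 658 touched the coding sequence of one gene and 7 that of both. Of the 1069 peaks, 784 lay whole inside the overlap and the others reached out of it. Their median width was 53 bp (24 to 491 bp), against 50 bp in the other coding peaks. A lncRNA gene also lay under 25 of them, and no tRNA, snoRNA, snRNA or rRNA gene did. The peaks were richer in A and T than other coding peaks, with a median GC content of 36.8%, against 39.3%. Those in the 3′ UTR of both genes had 32.6%, close to the 33.7% of single 3′ UTR peaks. The poly(A) signal AATAAA was searched on either strand of a 200 bp window around each peak centre. It occurred in 44.1% of these windows, against 33.9% for the other coding peaks. In 3′ UTRs of both genes the share was 65.2%, against 60.3% for single 3′ UTRs, and the signal stood on both strands in 15.6%, against 10.5%. A match is a description of the letters and not a used site.

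Whether these small RNAs need Dicer was asked first of all 1069 peaks together. Levels are given as normalised reads, which means reads scaled to a peak of mean width and between libraries by trimmed-mean (TMM) factors. The median level was 27.8 normalised reads in the dcr delta library and 27.1 ± 0.52 in wild type at 30 °C (SD, n = 3). The peaks took 0.614% of reads over peaks in the dcr delta library (95% Wilson interval 0.608 to 0.62%, counting error only), against 0.539%, 0.567% and 0.846% in the wild-type libraries of spb80 and of spb75 replicates 1 and 2. Within the reads on coding peaks their share was 4.44% in the dcr delta library, against 3.97%, 4.49% and 3.98% in wild type. The dcr delta value lay inside the wild-type range in both shares. The summed level of the overlap peaks was 41842 normalised reads in the dcr delta library, below the 42441, 48675 and 42937 of the wild-type libraries. That of the other coding peaks was also below wild type, at 725039 against 809057, 845812 and 831164.

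Peaks on the pericentromeric lncRNA genes, which are known to need Dicer, show what a loss looks like in these libraries. They took 0.116% of reads in the dcr delta library and 18.97% ± 3.33 in wild type (SD, n = 3), and 40 of 40 were called lower, their log2 ratios running from -8.37 to -6.32 (median -7.14). Among the 5 other coding peaks called lower, 4 lay in the telomere-linked helicase genes tlh1 and tlh2 and 1 in tho3. The lowest ratio among the tested overlap peaks was -2.54. Several pericentromeric peaks are repeat copies that share reads and are not independent.

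Limma was used with Benjamini-Hochberg adjustment at 0.05 over all 8274 tested peaks. Of 719 tested overlap peaks, 0 were lower in the dcr delta library (0.870% of all tested peaks were) and 0 were higher (0.0242% of all). The 72 lower calls among all peaks included the 40 pericentromeric ones. Of 6549 tested other coding peaks, 5 were lower and 2 higher. At an unadjusted p under 0.05, 26 overlap peaks were lower (3.62%, against 3.72% of all tested peaks and 2.89% of other coding peaks). At the same p, 8 were higher (1.11%, against 2.50% and 2%). In single 3′ UTR peaks these shares were 2.37% lower and 2.3% higher. With voom weights in place of the trend the adjusted counts were again 0 and 0. The median log2 ratio was 0.04 (quartiles -0.38 and 0.36), against -0.09 in the other coding peaks and -0.05 in all peaks. It was -0.01 where spb80 alone served as the control. The single values of the overlap peaks ran from -2.54 to 3.41. Below -1 were 52 of them (7.23%, against 7.52% of all tested peaks and 6.79% of other coding peaks). Above 1 were 29 (4.03%, against 6.64% and 5.21%). In single 3′ UTR peaks 5.64% were below -1 and 5.92% above 1.

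**Figure D2:**
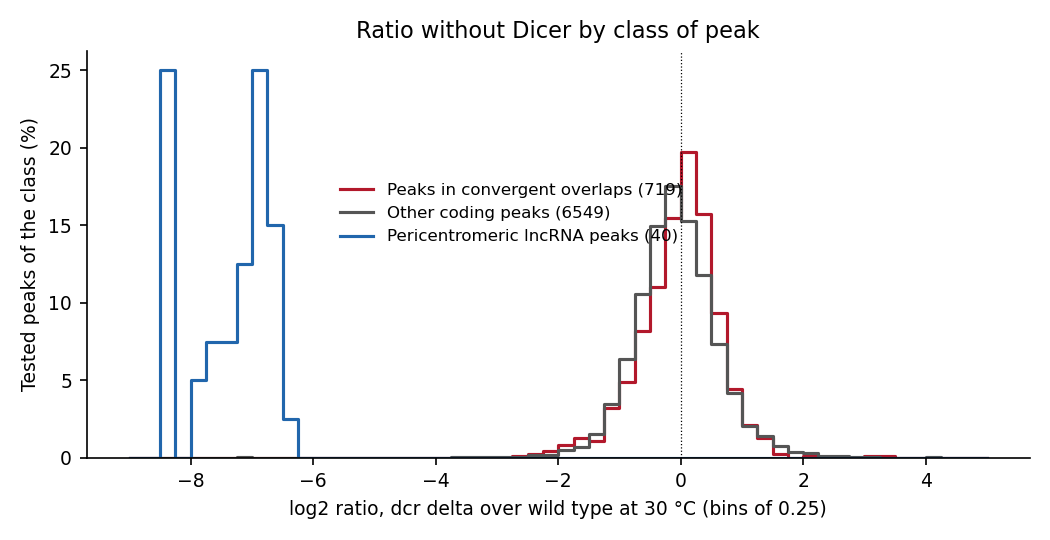
Distribution of the log2 ratio of the dcr delta library over wild type at 30 °C (x axis, bins of 0.25) as the share of tested peaks of each class (y axis). The 719 peaks in convergent overlaps (red) lie around 0 with the 6549 other coding peaks (grey), while the 40 pericentromeric lncRNA peaks (blue) lie between -8.37 and -6.32.

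The remaining 350 overlap peaks were too low to be tested, since peaks in the lowest 25% by mean did not enter the fit. Their summed level was 5586 normalised reads in the dcr delta library, against 4925, 5248 and 5155 in the wild-type libraries. The sum without Dicer was above that of each wild-type library, and none of these peaks passed 46.5 normalised reads in the dcr delta library. Over all overlap peaks, tested or not, the sum went the other way, with 41842 against 42441, 48675 and 42937.

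The order of the libraries was also counted for each peak. The dcr delta value was below every wild-type library in 181 of 719 tested overlap peaks (25.2%; 30.2% of all tested peaks) and above every one in 162 (22.5%; 22.4% of all). The lower share was 32% in the other coding peaks.

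How large a fall the data would have shown sets how these counts can be read. The standard error of a log2 ratio had a median of 0.57, which gives a 95% interval of 1.30 to either side. The interval lay wholly above -3 in 701 of 719 peaks and above -2 in 613. A fall of the pericentromeric size was out of reach for most, since a peak with 0 reads in the dcr delta library would have had a median ratio of -5.20, and 85 peaks were high enough to reach -6.32. Of 31 peaks called lower within 50 kb of an end of chromosome I or II, 16 had a wild-type mean within 21.7 to 130 normalised reads, the range that holds the tested overlap peaks between their 5th and 95th percentiles, and these 16 had ratios from -6.74 to -4.83. The lowest wild-type mean among the 31 was 48.3, above the median of 37.6 of the tested overlap peaks, and the tho3 peak was called lower at a wild-type mean of 32, with a ratio of -4.94. None of these calls bears on smaller falls, and the overlap peak at -2.54 was not called, so a partial fall of a single peak may go uncalled at this depth.

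Against other coding peaks of like level the overlap peaks differed little. Peaks were put in 5 classes by their mean level over all 6 libraries, and the median ratio of the overlap peaks minus that of the other coding peaks was -0.05, 0.13, 0.11, 0.19 and 0.00 from the lowest to the highest class. Weighted by the number of overlap peaks the difference was 0.07, and it turned to -0.03 with no filter on low peaks and with spb80 as the only control. In the lowest class the medians were 0.12 for overlap peaks and 0.17 for other coding peaks, and in the highest -0.21 and -0.22. In both kinds of peak the ratio was lowest in the highest class. In the highest class 16.3% of 43 overlap peaks (7 peaks) were below -1, against 7.87% of 1411 other coding peaks. The cti1/SPCC1739.08C peaks that start at 2042023, 2042241 and 2042496 were among these 7 and do not stand for separate loci. Their mean levels were 200, 639 and 202. The remaining overlap peaks of this pair lay below 118, the lower edge of the class, so the rest of the 7 lay in other pairs.

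**Figure D3:**
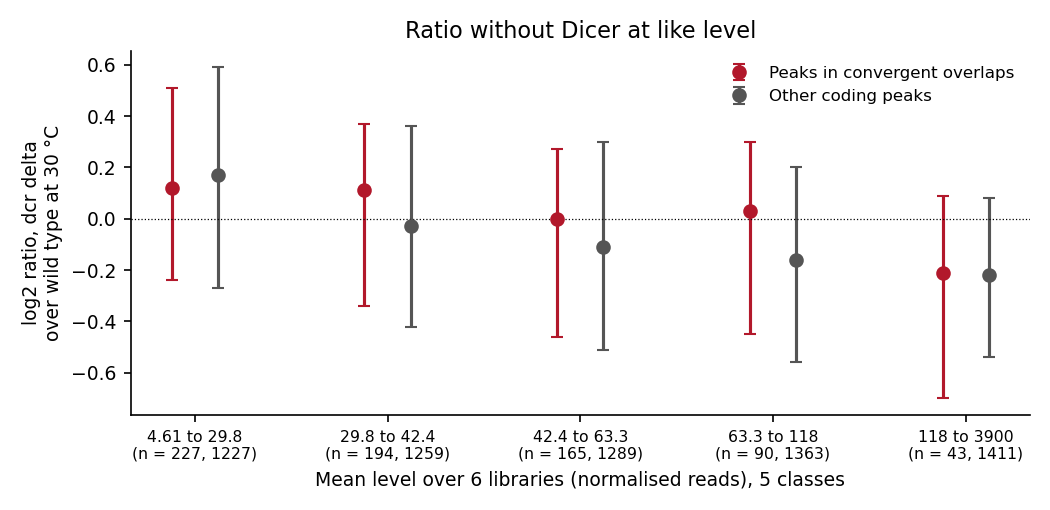
Median log2 ratio of the dcr delta library over wild type at 30 °C (y axis, bars from the lower to the upper quartile) in 5 classes of mean level (x axis, normalised reads, with the numbers of overlap peaks and of other coding peaks). Medians of overlap peaks (red) lie between -0.21 and 0.12 and those of other coding peaks (grey) between -0.22 and 0.17.

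Peaks on the same genes gave a second comparison. In 275 pairs with tested peaks both inside and outside the overlap rule, the mean ratio of the overlap peaks minus that of the other peaks on these genes had a median of 0.07 (quartiles -0.34 and 0.48), with 124 pairs below 0 and 151 above. This median turned to -0.01 when spb75 replicate 2 was left out and when spb80 was the one control. By overlap length the median ratio was 0.12 under 100 bp (102 peaks), 0.15 for 100 bp to under 500 bp (199) and -0.04 for 500 bp or more (418). The share of peaks below -1 was 1.96%, 4.02% and 10% in these classes. It was 7.52% in all tested peaks and 6.79% in other coding peaks. Of the 26 lower peaks at an unadjusted p under 0.05, 22 lay in the longest class, 4 in the middle class and 0 in the shortest. These were 5.26%, 2.01% and 0% of the tested peaks of each class, against 3.72% of all tested peaks and 2.89% of other coding peaks. Of the 22, 5 lay in the pair cti1/SPCC1739.08C. Peaks in the 3′ UTR of both genes had a median of 0.13 and those that touch coding sequence 0.00. The classes most like them had medians of 0.02 (3′ UTR of 1 gene), -0.08 (divergent genes that overlap at the 5′ ends, 43 tested) and 0.01 (2 genes of the same strand, 24 tested).

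Of the 10 lowest ratios among the tested overlap peaks, 6 lay in a single pair. cti1 encodes an exosome subunit, a part of the machinery that trims and degrades RNA, and SPCC1739.08C on the other strand is annotated as a dehydrogenase. Their overlap on chromosome III (2041789 to 2042711, 923 bp) held 7 peaks, all in the 3′ UTR of cti1. In 7 of 7 the dcr delta value was below every wild-type library, as in 30.2% of all tested peaks. The pair was picked for its low ratios and its peaks are neighbours, so this count is not a separate test. Low ratios were not confined to the overlap, since a peak of SPCC1739.08C outside it, at 2043601 to 2043635, had a ratio of -2.27 (2 reads in the dcr delta library, against 3 in spb80 and 41 and 30 in spb75), while another at 2042780 to 2042851 had -0.30.

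The peak at 2042496 to 2042553, whose central letters are printed first above, had 34.1 normalised reads in the dcr delta library, against 112 in spb80, 265 in spb75 replicate 1 and 280 in replicate 2. The dcr delta library was lowest and spb80 next, and the groups did not overlap. The log2 ratio was -2.54 (SE 0.59, limma adjusted p = 0.197). At 2042241 to 2042339 the level was 90.7 in the dcr delta library, against 143 in spb80 and 1884 and 485 in spb75. Replicate 1 of spb75 stood far above the other libraries, and the ratio of -2.47 had the wider SE of 1.11 (adjusted p = 0.815). Over the 7 peaks together the summed level was 255.3 in the dcr delta library, against 523.7 in spb80 and 2969 and 1331 in spb75. The 30 °C wild types thus differed from each other by more than the dcr delta library differed from spb80.

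No peak of the pair passed the threshold against all 3 wild-type libraries. An unadjusted p under 0.05 was found in 5 of 7, and 3.72% of all tested peaks were lower at that p. Without spb80, which leaves the 2 spb75 libraries as controls, 92 of all 8274 tested peaks were called lower. Of the 7 peaks of the pair, 3 were among them, with ratios of -2.81, -2.82 and -2.96 (limma adjusted p = 0.0429, 0.0217 and 0.0143). These were the only overlap peaks called lower under any control set tried, and strain and Dicer cannot be told apart in this contrast because spb309 has no wild type of its own. After 8 hours at 37 °C the 7 peaks did not move together. The first 5 from the start of the overlap had ratios from -1.21 to 0.38 and the last 2 had 2.65 and 1.74.

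**Figure D4:**
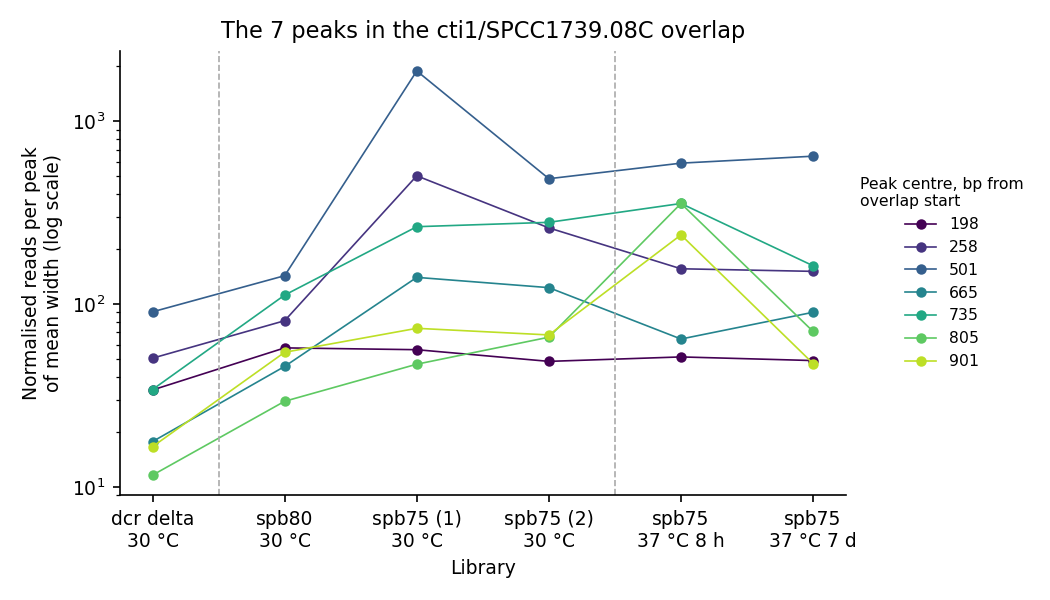
Normalised reads (y axis, log scale) of the 7 peaks in the cti1/SPCC1739.08C overlap in each library (x axis), coloured by distance from the start of the overlap, with a line joining the values of each peak. The dcr delta library is below each of the 3 wild-type libraries at 30 °C in all 7 peaks, and the peaks at the far end are highest after 8 hours at 37 °C.

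Low ratios were also found in other pairs. In cqd1/mrx14 (an ABC1-family kinase gene and a mitochondrial ribosomal protein gene) the peak had 4.95 normalised reads in the dcr delta library, from 2 reads, against 18.4, 35 and 28.5 in spb80 and spb75 replicates 1 and 2. The ratio was -2.20 (SE 0.71, limma adjusted p = 0.544). In mti2/aga1 (a mitochondrial translation initiation factor and an enzyme of arginine synthesis) it was 14.1, against 43.1, 66.1 and 76.3, a ratio of -2.02. Peaks in vps25/usp102 and alg2/his3 had ratios of -1.92 and -1.84. In each of these 4 pairs the dcr delta value was below all 3 wild-type values, which follows largely from the choice of low ratios. The same held for 30.2% of all tested peaks, and none of the 4 passed the threshold.

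At the other end, a peak in the overlap of pch1, the cyclin T partner of a kinase that acts on RNA polymerase II, and SPBC32F12.07C, a ubiquitin ligase gene, had 131 normalised reads in the dcr delta library (101 reads). The wild-type libraries had 15.9 in spb80 and 7.24 and 12.6 in spb75. The dcr delta library stood far above the others, with a ratio of 3.41 (SE 0.67, limma adjusted p = 0.0741). The peak is 61 bp wide at 2795830 to 2795890 of chromosome II. The other tested overlap peaks of the same pair, the nearest of them beginning 4 bp away, had ratios from -1.06 to 0.53. This peak was called higher with a pseudocount of 10 (adjusted p = 0.0177), with libraries scaled by total reads (0.0461) and without spb80 (0.029).

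The deleted gene is itself a member of such a pair. dcr1 and spn6, which encodes a septin, overlap by 1903 bp on chromosome III (1504949 to 1506851), with 4 peaks. The peak at 1505607 to 1505661, in the 3′ UTR of dcr1 and the coding sequence of spn6, had 99.3 normalised reads (69 reads) in the dcr delta library, against 11.8 in spb80 and 12.5 and 6.37 in spb75. The ratio was 3.21 (SE 0.71, limma adjusted p = 0.143), and it was called with a pseudocount of 10 (adjusted p = 0.0273). The other 3 had 61.5, 39.6 and 36.8 in the dcr delta library, and in wild type at 30 °C none of the 3 passed 19.2.

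In all 4 the dcr delta library was the highest at 30 °C. The last 2 lie in the dcr1 coding sequence and the spn6 3′ UTR and held 21 and 20 reads, and a further peak in it outside the overlap held 115 reads in the dcr delta library. That peak had 83.5 normalised reads in the dcr delta library, against 32.3 in spb80 and 18.2 and 27 in spb75 (ratio 1.69, limma adjusted p = 0.583, not called). Reads were thus present on part of the gene named in the genotype label, at levels above those of wild type. Since the labels do not give the deleted bases, these values do not check the label. Pericentromeric small RNA was lower in the dcr delta library in 40 of 40 peaks. Whether the deletion named in the label caused this was not tested.

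The remaining high ratios, in tls1/grh1 (1.75), SPCC1919.07/mrpl33 (1.71) and SPCC757.04/SPCC757.05C (1.44), had adjusted p-values from 0.699 to 0.866. In SPCC1919.07/mrpl33 the 47.5 normalised reads of the dcr delta library were almost matched by the 47 of spb80, against 2.87 and 16.3 in spb75, so the groups nearly overlapped.

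Over whole pairs there was no common direction. Of 379 pairs with a tested peak, 125 had all their peaks below 0 and 173 all above, and the median of the pair means was 0.08. Among the 157 pairs with several tested peaks, 32 had all below 0 and 44 all above.

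Of the pairs, the 5 with the highest mean level over their overlap peaks each hold a ribosomal protein gene, which in ubi1/mct1 is a ubiquitin fusion. Single peaks of other pairs were as high, among them the cti1 peak at 2042241, whose mean of 639 over all 6 libraries was above those of 4 of these 5. The peak of trs23/rpp102 (a vesicle tethering subunit and ribosomal protein P1) had 597 normalised reads in the dcr delta library, against 910, 1194 and 666 in spb80 and spb75 replicates 1 and 2. The dcr delta value was the lowest at 30 °C, and the ratio was -0.59 (SE 0.51, limma adjusted p = 0.904, not called). The wild-type libraries themselves ran from 666 to 1194. The highest peaks of ptf2/rps3, abz2/rps3002, odc1/rps502 and ubi1/mct1 averaged 340 to 554 normalised reads in wild type and had ratios from -0.54 to -0.06. In odc1/rps502 59 of 445 bp of the peak lie in the overlap and in ptf2/rps3 68 of 289 bp, so most of those reads can come from the body of rps502 and rps3 alone. A lncRNA gene also lies under these 2 peaks. The 3 longest overlaps held 11 peaks. The 6 peaks of rad3/swi1 had 0 to 24.5 normalised reads in the dcr delta library and none entered the test. The 3 peaks of msw1/peg1 had 36.1, 22.1 and 23.3 in the dcr delta library, and the first and last were tested, with ratios of -0.51 and -0.05. Of the 2 peaks of esf2/lvs1, 1 was tested, with a ratio of -0.01.

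Of 25 genes of RNA interference and heterochromatin, 10 have a convergent overlapping partner and 6 hold peaks there, 14 in all, of which 4 were tested and 0 called. Beside dcr1 these are hrr1, the helicase of the RNA-directed RNA polymerase complex (4 peaks), eri1, a nuclease that degrades siRNA (2), rik1, a subunit of the histone methylating complex (2), dsh1 (1) and cid14, a poly(A) polymerase of the TRAMP complex (1). The tested hrr1 peak had 20.6 normalised reads in the dcr delta library, against 20.4, 64.6 and 65.5 in spb80 and spb75. The dcr delta library was level with spb80 and below spb75, with a ratio of -1.07 (SE 0.72, limma adjusted p = 0.865). The tested eri1 peak had a ratio of 0.32. Of 9 cohesin genes, rad21 (5 peaks) and eso1 (1 peak) had such peaks, and the 4 tested ran from -1.24 to 0.83 with 0 called.

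Heat was the second condition. Each heated library was set against the same 2 spb75 libraries grown at 30 °C, so the heat comparisons share their controls. The median level of the overlap peaks was 32.6 normalised reads after 8 hours and 31 after 7 days, against 27.25 ± 0.636 at 30 °C (SD, n = 2). Their share of the reads on coding peaks was 5.77% after 8 hours and 4.76% after 7 days, against 4.49% and 3.98% at 30 °C, so both heated libraries were above the range at 30 °C. Their share of all reads over peaks was 0.381% and 0.494%, against 0.567% and 0.846%, below that range.

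After 8 hours 4 of 755 tested overlap peaks were higher by limma at an adjusted p under 0.05 (0.411% of all tested peaks were) and 0 were lower (0.0483% of all). At an unadjusted p under 0.05, 91 were higher (9.98% of all tested peaks were) and 20 lower (5.41% of all). The median log2 ratio was 0.23, against -0.07 in the other coding peaks, 0.20 in single 3′ UTR peaks and -0.01 in all peaks. Scaling by total reads moved the median of all peaks to -1.11 and that of the overlap peaks to -0.89, so the overlap peaks lay 0.24 above all peaks with TMM factors and 0.22 above with total reads. At like level the difference from other coding peaks was 0.16.

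The 4 peaks are short, 34 to 41 bp. In iss1/cum1 (a polyadenylation factor and a gene named only cum1) the level was 331 after 8 hours, against 44.1 and 35.9 at 30 °C, and 53.6 after 7 days. The ratio at 8 hours was 3.02 (SE 0.53, adjusted p = 0.0222). In coq12/stp1 (a flavin oxidoreductase and a protein tyrosine phosphatase) it was 365 after 8 hours, against 23.3 and 57.7 at 30 °C, a ratio of 3.28 (SE 0.60, adjusted p = 0.0308). The 8 hour library stood alone in both pairs, and 13 bp of the iss1/cum1 peak lie in the overlap itself.

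In usp107/hut1 (a protein of the U1 snRNP and a sugar nucleotide transporter) the level was 219, against 31.2 and 31.5, a ratio of 2.77 (adjusted p = 0.0351). In cti1/SPCC1739.08C the peak at 2042578 to 2042611 had 355, against 46.9 and 65.9, a ratio of 2.65 (adjusted p = 0.0466). After 7 days their ratios were 0.31 and 0.34, and 0.42 and 1.06 in iss1/cum1 and coq12/stp1, none past the threshold. In the spb75 libraries at 30 °C and after 7 days the 4 peaks ran from 23.3 to 77.8, below every value after 8 hours.

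**Figure D5:**
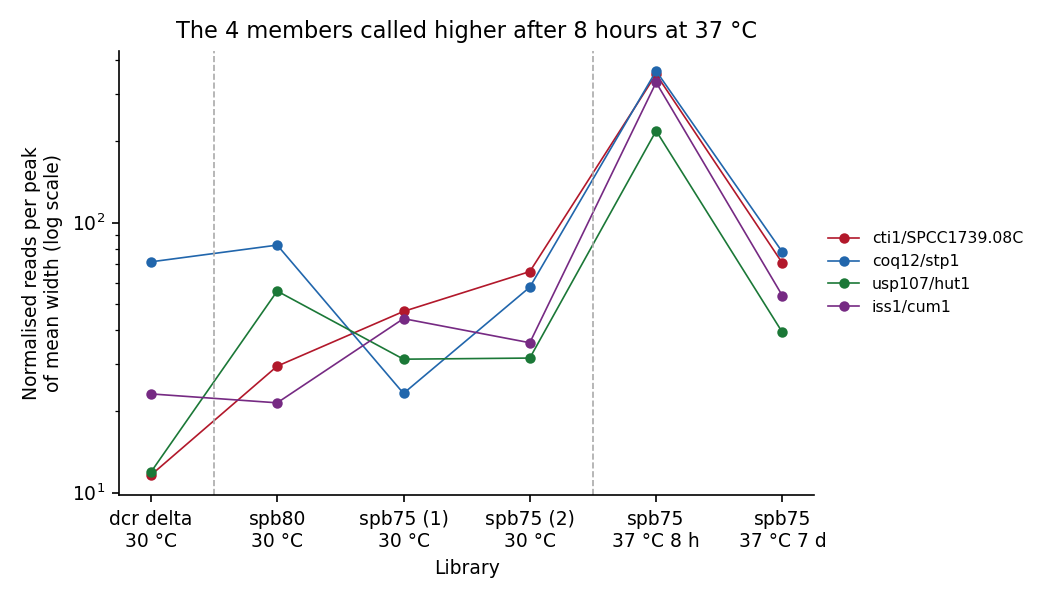
Normalised reads (y axis, log scale) of the 4 overlap peaks called higher after 8 hours at 37 °C, in each library (x axis), with a line joining the values of each peak. At 8 hours they reach 219 to 365, while the spb75 libraries at 30 °C and after 7 days lie between 23.3 and 77.8.

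Neighbouring peaks varied between the pairs. In coq12/stp1 the other 4 tested overlap peaks had ratios from -0.89 to 0.23 at 8 hours, and in usp107/hut1 the other 2 had -0.06 and -0.47. In iss1/cum1 4 of the 6 others were above 1 (1.19, 1.76, 1.76 and 1.79) and the rest had -0.53 and 0.36. In cti1/SPCC1739.08C the next overlap peak had 1.74, and 3 peaks outside the overlap had 1.30, 1.92 and 1.52. None of these neighbouring overlap peaks was called. The calls depend on the setting: the adjusted p of these 4 peaks ran from 0.0638 to 0.0975 with no filter on low peaks, from 0.14 to 0.2 against all 3 wild-type libraries at 30 °C, and from 0.405 to 0.437 with total reads. With a pseudocount of 10, 101 of all 8274 tested peaks were called. Overlap peaks made up 9 of these calls, the 4 named peaks and also eri1/mmm1, slx1/erg8, rds1/SPAC343.20, tsp0/php2 and gmh1/otg1.

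The peak in eri1/mmm1 (1321048 to 1321084 on chromosome II) had 129 normalised reads after 8 hours and 56.6 after 7 days, against 16.3 and 20.8 at 30 °C. Both heated libraries were above both at 30 °C. The ratios were 2.74 (SE 0.59, limma adjusted p = 0.0502) at 8 hours and 1.57 (adjusted p = 0.46) at 7 days. The lowest ratios at 8 hours, -2.30 in mbx1/ppr3, -2.29 in SPAC694.03/SPAC694.04C and -2.20 in pkl1/pfd6, had adjusted p-values of 0.13, 0.0569 and 0.298. The highest, 3.80 in slx1/erg8, had 127 normalised reads against 5.29 and 12.3 at 30 °C (adjusted p = 0.0519).

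After 7 days 0 of 746 tested overlap peaks were called in either direction by limma (0% of all tested peaks were), and at an unadjusted p under 0.05 there were 21 lower (5.96% of all tested peaks were) and 17 higher (3.38% of all). The median was 0.10, against -0.06 in the other coding peaks, and 0.11 above all peaks. With total reads it was -0.40, then 0.10 above all peaks. The extremes were -2.59 in prp19/srb6 (adjusted p = 0.214) and 2.24 in tho2/tsc1 (adjusted p = 0.467). Set against each other in a fit with the 2 spb75 libraries at 30 °C, 8 hours minus 7 days gave 0 of 749 overlap peaks past the threshold (65 at an unadjusted p under 0.05, against 874 of all 8274 tested peaks), with 12 called in all.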

How the data were processed

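Small RNA was sequenced in 6 libraries of fission yeast. The submitters' processing notes name MACS, CASAVA 1.8 and Bowtie 0.9.9.1, without their roles. Which build was used is not given in the sources used here. One list of 11033 peaks was deposited by the authors, with a signal per peak and library, worked out from the values as reads times the mean peak width (71 bp) over the peak's width. An added 8 in the spb80 and dcr delta columns was subtracted, and the dcr delta step per read divided out. Reads over peaks ran from 5790804 to 15723318 per library, with a median of 19 to 47 reads per peak. Identical repeats share reads, and intervals cover counting error only.

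Coordinates refer to ASM294v3, with genes from RefSeq. At unshifted positions 212 of 243 small RNA genes held a peak, against 38 to 60 after shifts of 200 to 2000 bp. A peak needed 1 bp on each gene of a convergent pair.

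Signal was scaled with TMM factors (30% and 5% trims) computed on reads. Differences were tested with limma (version 3.58.1, R 4.3.3), fitted to log2(normalised signal + 1), with a trend, 2-sided, over the peaks left after dropping the lowest 25%, and Benjamini-Hochberg adjustment at 0.05 over all tested peaks. Fold changes on this scale understate the change of low peaks. The dcr delta fit had 2 residual and 6.83 prior degrees of freedom. The single library on one side was assumed to vary like the controls. The code was tested on simulated data. A count model was not used, since signal is not a count.

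The members, gene lists and rules were chosen with earlier results of these data known. Named peaks are those past the threshold, the 5 pairs with the highest and the 5 with the lowest dcr delta ratio, the 5 pairs of highest mean level over their peaks, all on the RNA interference list, the 3 longest overlaps, and the 3 highest and 3 lowest pairs per heat comparison; a listed pair studied earlier, nmt1/gut2, held no such peak. Tables were made with Python 3.11.15 and pandas 2.3.3, figures with matplotlib 3.10.9.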

Additional observations from a re-analysis of the deposited data

How the results depend on the processing

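No paired analysis was possible because only the spb75 libraries at 30 °C carry replicate numbers.

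Without Dicer, the count of overlap peaks called lower stayed at 0 except with the spb75 controls alone (3), and the count called higher was 0 except with a pseudocount of 10 (2), spb75 controls alone (1) and total reads (1). Leaving out 1 wild-type library at a time gave 0 to 3 lower and 0 to 1 higher. The median log2 ratio of 0.04 was 0.08 with no filter and with 1 mean per gene pair, 0.17 with the added 8 kept and -0.01 with spb80 alone. The like-level difference of 0.07 was -0.03 with no filter and with spb80 alone, 0.01 with the peak centre inside the overlap, 0.02 with at least 0.5 of the width inside and 0.00 with level classes from wild type, and 0.01 to 0.06 without 1 library. The same-gene difference of 0.07 was 0.13 with spb75 controls alone, -0.01 with spb80 alone, 0.01 for overlaps of at least 100 bp and -0.01 to 0.13 without 1 library.

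After 8 hours the 4 calls became 0 with no filter, with total reads and with all 3 wild-type libraries, and 9 with a pseudocount of 10. The median of 0.23 was -0.89 with total reads and 0.18 to 0.35 without 1 library (values with no test). After 7 days the median of 0.10 was -0.40 with total reads and 0.07 to 0.11 without 1 library. The causes were not tested. The added 8 kept, spb80 alone, the mean per pair, the exclusion of peaks over lncRNA genes and the 8 hours minus 7 days fit were chosen after seeing the data. The median standard error of 0.57 limits what single ratios show.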
